A study of Mus musculus with 12 samples.

Results

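The comparison described here is between 2 lines of SIM-A9 cells in culture medium without stimulus: a line in which the kinase gene Mok was knocked out, called H14 in the labels and KO below, and the wild-type (WT) line. SIM-A9 is a mouse microglial line derived from C57BL/6 tissue, and microglia are the resident macrophages of the brain. Each line gave 3 medium libraries, which the labels call biological replicates, so 6 of the 12 libraries of the series enter the comparison. The other 6 come from the same lines after 5 h with 1 µg/mL lipopolysaccharide (LPS), a bacterial cell-wall component. They give a second measurement of the line difference in separate libraries. The sample records list the same 5 h for the medium libraries, without LPS. All cells were kept in DMEM-F12 with fetal bovine and horse serum, antibiotics and L-glutamine. The KO group is 1 cell line, and how it was derived is not given in the sources used here. What follows from the loss of Mok and what is peculiar to the line therefore cannot be told apart in these libraries.

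MOK is a serine/threonine kinase of the MAP kinase superfamily, related to the kinases MAK and ICK that act at primary cilia. Microglia sense microbes and debris through Toll-like receptors, C-type lectins, complement receptors and scavenger receptors. They respond with cytokines, nitric oxide, reactive oxygen and proteases. In culture without stimulus most of these programs run at a basal level, and the transcription factor PU.1 (gene Spi1) maintains many of the receptors.

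Read counts per gene were compared with edgeR's quasi-likelihood test across all genes that passed a filter on low counts, 26420 of 55416, with the Benjamini-Hochberg adjusted p held under 0.05. Levels are given as CPM, counts scaled to TMM-adjusted library size, which can be set against each other between lines for 1 gene but not between genes. Log2 fold changes are KO over WT, with a standard error. The medium libraries held 39726866 to 57127753 counts, and this number limits the precision of low genes. Processed pseudogenes, which are intronless copies of genes, took 8.89%, 13.05% and 6.58% of the counts in WT replicates 1, 2 and 3. In the KO replicates they took 12.8%, 13.7% and 14.3%, so the WT and KO ranges overlapped only through WT replicate 2. Among 4634 tested processed pseudogenes the median log2 fold change was 0.70, against -0.04 among 16173 coding genes. WT replicate 2 stood apart from the other WT medium libraries, and the part of these differences in composition in the results below was not tested except by the fits named beside them.

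The sample identity was first compared with marker genes. The macrophage markers were present in both lines, with Cd68 at 411 CPM in WT and 349.8 in KO, Ptprc at 187 and 188, Csf1r at 240.3 and 148, and Trem2 at 76.95 and 75.7. Markers that set brain microglia apart from other macrophages were low in both lines. P2ry12 was at 0.756 and 0.532 CPM, Tmem119 at 3.86 and 5.97, and Siglech under 1 CPM in each of the 6 libraries. Summed over 5 neutrophil, 5 T and NK cell, 5 astrocyte, 5 neuron and 6 endothelial and fibroblast markers, levels per list and library ran from 0.545 to 11.3 CPM. The 6 oligodendrocyte markers summed to 11.3 to 13.7 CPM in WT and 24.7 to 26.1 in KO, most of it Mbp (8.60 and 20.1), with Mog near 0. The 7 B lineage markers summed to 11.1 to 20.2 CPM in WT and 137 to 197 in KO. Ighm carried nearly all of that, while Pax5, Ms4a1, Cd79a and Ebf1 were under 1 CPM in all 6 libraries. In RNA from a whole culture, fewer cells that express a gene and less RNA per cell cannot be told apart.

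Mok itself was measured at 3.33, 3.52 and 3.21 CPM in WT replicates 1, 2 and 3, and at 2.24, 2.58 and 1.93 in the 3 KO replicates. Mok was among 4177 of the 16173 tested coding genes in which all KO values lay below all WT values. Its log2 fold change was -0.58 ± 0.19, and with an edgeR adjusted p of 0.0501 the difference just missed the threshold. It was called lower with DESeq2, with RLE size factors in place of TMM, with coding genes alone and without WT replicate 2. Under LPS it was -0.72 ± 0.19 with an adjusted p of 0.018. Reads over the gene body do not show whether a functional kinase is made. The 30 nearest expressed coding genes on chromosome 12, where Mok lies, had a median log2 fold change of -0.42 in the same comparison.

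Genes of 4 chromosomes were shifted together between the lines. Over coding genes with at least 4 CPM on average in the 6 medium libraries and placed on a chromosome from 1 to 19 or X, the median log2 fold change was -0.55 on chromosome 2, -0.40 on chromosome 12 and -0.28 on chromosome 13. On chromosome 6 it was 0.29. Single medians of the 16 other chromosomes ran from -0.13 on chromosome 7 to 0.03 on chromosome 4. Of the 791 such genes on chromosome 2, 583 (73.7%) were called lower in KO and 8 higher, and 94.3% had a negative log2 fold change. On chromosome 12, 201 of 341 were called lower (58.9%), and on chromosome 13, 191 of 416 (45.9%). On chromosome 6, 193 of 443 were called higher (43.6%) and 24 lower. Over the 16 other chromosomes together 16.2% were called lower and 8.6% higher.

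**Figure D1:**
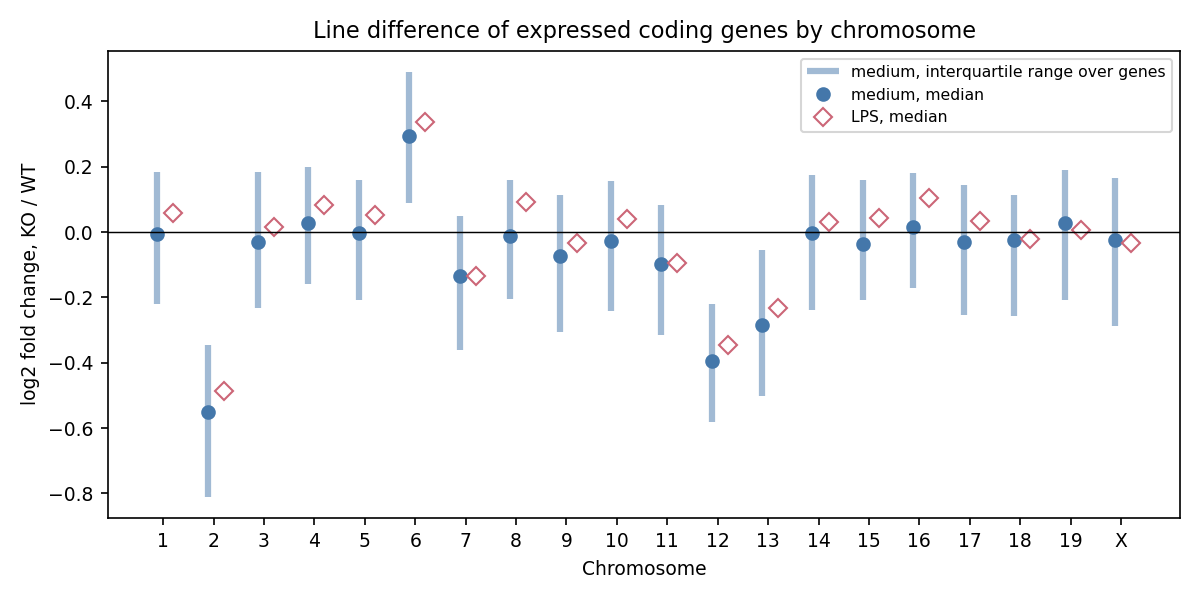
Median log2 fold change of KO over WT by chromosome, over coding genes with at least 4 CPM in medium. Filled circles with bars give the median and the interquartile range over genes in medium, and open diamonds give the median of the same genes under LPS. Chromosomes 2, 12 and 13 lie below the rest and chromosome 6 above, in both conditions.

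The shifts were present in each library. For each library the median level of a chromosome's genes was taken on the log2 scale relative to the genes' means over the 12 libraries, and set against the same value over the 16 other chromosomes. On chromosome 2 this relative level was 0.24, 0.27 and 0.30 in the WT medium replicates and -0.24, -0.25 and -0.25 in the KO medium replicates. The 2 lines did not overlap. Chromosome 12 gave 0.16, 0.17 and 0.15 in WT and -0.16, -0.20 and -0.17 in KO, and chromosome 13 gave 0.12, 0.18 and 0.11 and -0.046, -0.11 and -0.11. Chromosome 6 went the other way, at -0.12, -0.18 and -0.21 in WT and 0.17, 0.14 and 0.17 in KO. The 3 KO libraries lay on 1 side of the 3 WT libraries for each of these 4 chromosomes. For this the exact permutation test gives p = 0.1, the smallest value that 3 against 3 allows (two-sided). Chromosomes 4, 5, 7, 8, 9, 11, 16 and 19 gave the same separation and the same p in that test, with smaller line differences. The largest of these was -0.086 on chromosome 7, against -0.22 on chromosome 13. The 4 chromosomes were picked from these data, so the test does not set them apart. WT replicate 2 lay between the other WT libraries on chromosomes 2 and 6 and above them on chromosomes 12 and 13. With it left out, the median of chromosome 2 less that of the 16 other chromosomes was -0.52, as with all libraries.

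The LPS libraries, which share no sample with the medium libraries, gave the same 4 shifts. Medians under LPS were -0.49, -0.34 and -0.23 on chromosomes 2, 12 and 13 and 0.34 on chromosome 6. Under LPS 65.2% of the chromosome 2 genes were called lower, and 48.3% of the chromosome 6 genes higher. For the other 16 chromosomes the shares under LPS were 18.8% lower and 14.6% higher.

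**Figure D2:**
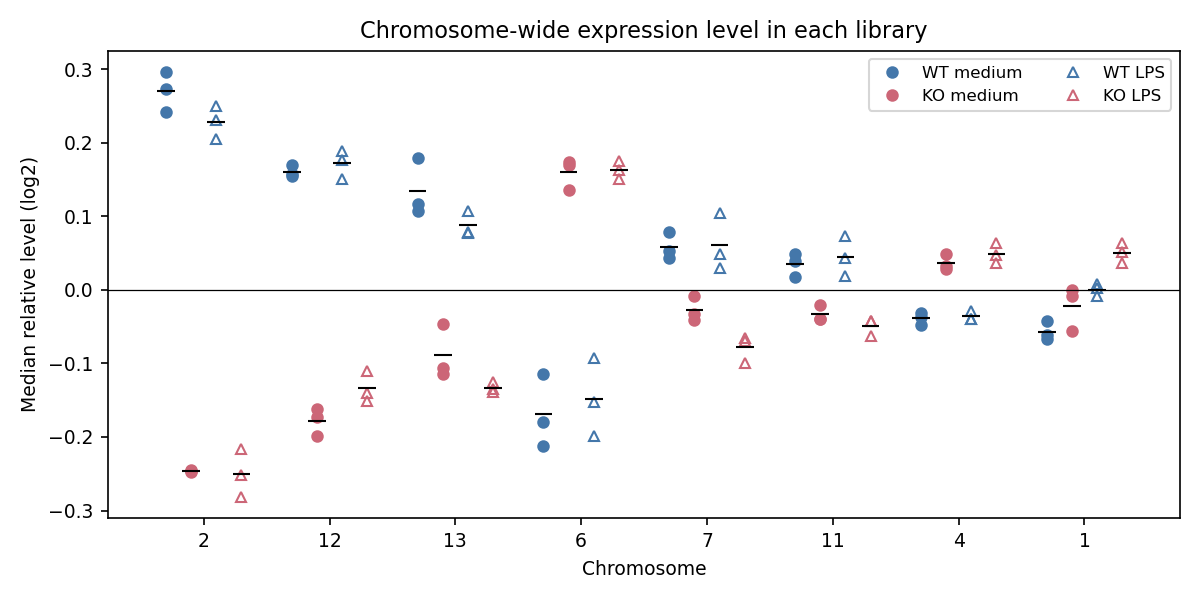
Relative level of a chromosome's genes in each of the 12 libraries, on the log2 scale, with 0 set by the 16 other chromosomes. Each point is 1 library, bars are group means, and chromosomes 7, 11, 4 and 1 are shown beside the 4 shifted ones. On chromosomes 2, 12, 13 and 6 the KO libraries lie apart from the WT libraries in medium and under LPS. They also lie apart, by less, on chromosomes 7, 11 and 4.

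Along the chromosomes the shifts held over long runs of neighbouring genes and changed level within 2 of them. In windows of about 30 consecutive expressed coding genes, in the gene order of GRCm38, chromosome 12 ranged from -0.49 to -0.23 and chromosome 6 from 0.085 to 0.48, its lowest value being the first window, from Vps50 to Ndufa5. On chromosome 2 a run of 5 adjoining windows, from Gtf3c4 to Slc25a12, had medians between -0.89 and -0.77. In that run 137 of 155 genes were called lower and 0 higher. The other 21 windows of chromosome 2 had a gene median of -0.49, with 1 window, from Tubb4b to Dnlz, at -0.11. On chromosome 13 the 2 adjoining windows from Vps41 to Hfe stood against the rest of the chromosome, with medians of 0.225 and 0.344 and 22 of 60 genes higher. They include part of the large histone gene cluster. The other 12 windows of chromosome 13 lay between -0.47 and -0.11. Over the 261 windows of the 16 other chromosomes the range was -0.36 to 0.17. These runs were picked after their values were seen, so they are given without a test. Under LPS the chromosome 2 run had a median of -0.74 and the chromosome 13 run one of 0.26.

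**Figure D3:**
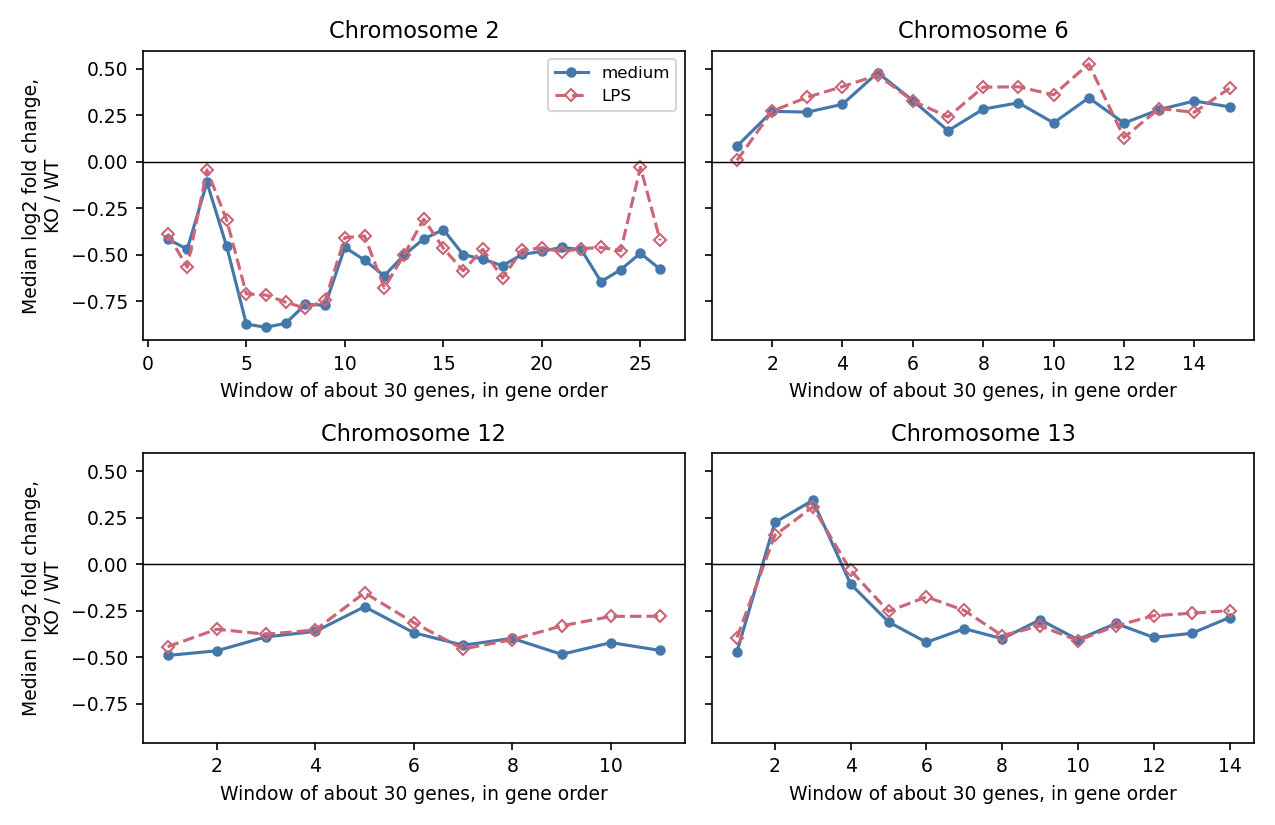
Median log2 fold change of KO over WT in consecutive windows of about 30 expressed coding genes along chromosomes 2, 6, 12 and 13, in medium (circles, solid line) and under LPS (diamonds, broken line). The step down on chromosome 2 between windows 5 and 9 and the positive windows 2 and 3 of chromosome 13 appear in both conditions.

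DNA was not measured in this series, so whether copy number follows these shifts was not tested. For many gene groups below, the count outside chromosomes 2, 6, 12 and 13 is therefore given beside the full count. Those 4 chromosomes held 20.1% of the tested coding genes, but 40.9% of the coding genes called lower and 24.3% of those called higher.

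In all, 1818 genes (6.88% of those tested) were called higher in KO and 3256 (12.3%) lower. Off the 4 chromosomes, 1390 of 21022 genes (6.61%) were higher and 1988 (9.46%) lower. Of the 12916 coding genes among those 21022, 939 were higher and 1652 lower, which is the background for list counts off the 4 chromosomes. Of coding genes alone, to which nearly all members of the gene lists below belong, 7.67% were higher and 17.3% lower. The larger changes were mostly decreases. Among coding genes, 794 fell and 367 rose at least 2-fold, and 142 fell at least 8-fold. At 4-fold or more, 63 coding genes rose. With the log2 share of processed pseudogenes added to the fit (the pseudogene covariate) the counts over all tested genes were 558 higher and 1784 lower, and with the 6 medium libraries alone 802 and 2552. Without WT replicate 2 they were 6110 higher and 5155 lower, and without WT replicate 1 or 3 or KO replicate 1 or 3 between 907 and 1050 genes were higher.

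A set of genes was nearly absent from KO. By a rule of under 0.5 CPM in all 3 KO libraries and over 5 CPM in all 3 WT libraries, 23 coding genes were expressed in WT and close to nothing in KO, and 0 genes of any class met the reverse rule. Of the 23, 4 lay on the shifted chromosomes (Il1a, Slpi and Cd302 on chromosome 2 and Eif4e3 on chromosome 6). Those chromosomes held 20.1% of all tested coding genes, a share near that. All 23 were called lower under LPS too. In descending order of level the first 12 were Slc7a2, Mcub, C5ar1, Afp, Maoa, Mical2, Fabp3, Dcbld2, Tmem254a, Il1a, Slpi and Uchl1. The other 11, named after their values were seen, were Gda, Pcdh7, Cd302, Spink5, Glipr2, B4galt4, Ints6l, Irak3, Btg3, Csprs and Eif4e3.

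Slc7a2 encodes a transporter that brings arginine into macrophages. It was at 43.6, 39.7 and 39.5 CPM in WT and 0.253, 0.177 and 0.304 CPM in KO, 165-fold lower (log2 -7.36 ± 0.19, edgeR adjusted p = 2.9e-09). Maoa, the mitochondrial monoamine oxidase A, was at 18.6, 17.6 and 18.2 CPM in WT. In KO it had 3 counts in 1 library and 0 in the other two, against 2865 counts over the WT libraries. That is a ratio of 883, with an exact 95% interval of 302 to 4290 that covers counting error only. Maoa lies on the X chromosome.

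Mcub, the dominant-negative subunit of the mitochondrial calcium uniporter, was at 37.2, 32.7 and 30.2 CPM in WT and 0.194, 0.265 and 0.324 in KO (log2 -6.99 ± 0.19, adjusted p = 3.5e-09 by edgeR). The pore subunit Mcu was at 25.5 and 24.6 CPM and was not called. In the list of 10 uniporter and mitochondrial calcium genes, 2 were lower, Mcub and the sodium-calcium-lithium exchanger Slc8b1 (42.6 to 29.7 CPM), and 0 higher. Without WT replicate 2, 4 were lower. C5ar1 is the receptor for the complement fragment C5a. Its level was 27.3, 25.2 and 23.7 CPM in WT and 0.156, 0.353 and 0.324 in KO, and the groups were far apart (log2 -6.52 ± 0.28).

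Neo1 and Csf2ra, surface receptors just above the near-absence rule, fell by similar amounts. Neo1 (neogenin, a receptor for netrins and repulsive guidance molecules) was at 109.8, 106 and 117 CPM in WT and 0.700, 0.795 and 0.791 in KO. Its log2 fold change was -7.18 ± 0.19 with an edgeR adjusted p of 2.9e-09. Csf2ra, the ligand-binding chain of the GM-CSF receptor, was at 49.9, 49.1 and 58.3 CPM in WT and 0.797, 0.729 and 0.547 in KO (log2 -6.24 ± 0.19). The shared signalling chain Csf2rb instead rose, from 158 ± 0.708 to 231 ± 12.3 CPM (mean ± SD, n = 3, log2 0.55, edgeR adjusted p = 0.038), and so did its paralogue Csf2rb2 (log2 0.67).

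The remaining genes of the 12 largest decreases were Il1a, Afp, Mical2, Tmem254a, Ankrd50 and Slpi. Il1a (interleukin-1 alpha) was at 10.8, 11.2 and 10.5 CPM in WT and 0.0972, 0.221 and 0.122 in KO. Afp, the fetal serum protein alpha-fetoprotein, was at 16.3, 17.7 and 21.8 and 0.156, 0.353 and 0.284 CPM. Mical2, an enzyme that oxidises actin, was at 15.4, 18.96 and 18.99 and 0.272, 0.309 and 0.264 CPM. For each of these 3 genes all KO libraries were under 1 CPM and no WT library was. Ankrd50, an endosomal sorting factor, fell from a mean of 29.9 to 0.593 CPM and the protease inhibitor Slpi from 10.1 to 0.209. Tmem254a shares 72.9% of its 31-base sequences with other annotated transcripts, so its counts (12.2 to 0.139 CPM) are uncertain. The same holds for Fabp3 (50.1%), Btg3 (33.4%), Pcdh7 (20.7%) and Dcbld2 (20.5%) among the nearly absent genes.

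**Figure D4:**
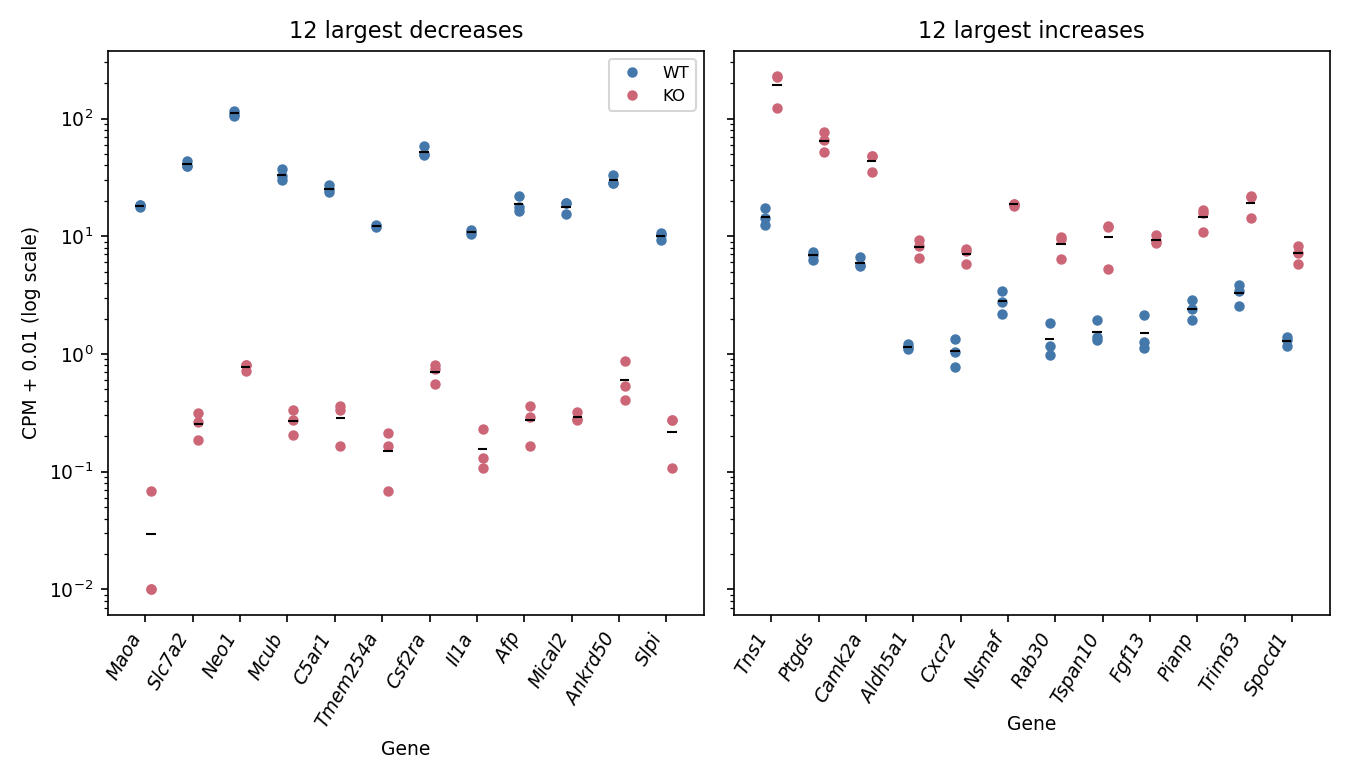
Level in each medium library (CPM + 0.01, log scale) of the 12 coding genes with the largest decreases and the 12 with the largest increases in KO, among called genes with at least 4 CPM on average and no overlap between lines. Points are libraries and bars are means. WT levels of the decreased genes run from 9.36 to 117 CPM while their KO levels stay under 1 CPM.

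The start regions of the nearly absent genes had no single sequence type. RefSeq windows on GRCm38.p6, from 250 bases before to 50 after the gene start, were matched by symbol for 19 of the 23 genes (22 windows). They held a median of 10 CpG dinucleotides, against 19 for all coding genes called lower, 19 for those called higher and 18 for coding genes not called. Their interquartile range was wide, from 5.25 to 23.8. The letters GAGGAAG, a core that PU.1 binds, were found on either strand in 13.6% of these windows and in 13.6% of all windows. For all coding genes called lower the share was 16.1%, and for those not called 12.9%. GAAANNGAA, an interferon response core, was found in 13.6% of the nearly absent genes' windows and 8.56% of all windows. A match is only a match of letters. The 250 bases before the start of C5ar1 (chr7:16259339-16259588, minus strand) and of Dcbld2 (chr16:58408285-58408534, plus strand) show the span, with CpG in capitals, 2 in the first and 27 in the second. Both are written 5′ to 3′.
C5ar1: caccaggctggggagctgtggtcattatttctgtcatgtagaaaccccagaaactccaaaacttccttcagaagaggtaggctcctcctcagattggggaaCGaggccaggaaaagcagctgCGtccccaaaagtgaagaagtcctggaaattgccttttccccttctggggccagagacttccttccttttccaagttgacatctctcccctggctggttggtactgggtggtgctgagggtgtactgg
Dcbld2: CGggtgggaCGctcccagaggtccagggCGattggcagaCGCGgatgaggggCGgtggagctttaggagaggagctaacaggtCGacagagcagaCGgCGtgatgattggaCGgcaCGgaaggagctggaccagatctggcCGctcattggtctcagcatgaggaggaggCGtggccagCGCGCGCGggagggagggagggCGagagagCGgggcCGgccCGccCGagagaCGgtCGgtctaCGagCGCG

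Increases were fewer and smaller. Tns1 encodes tensin 1, which links integrins to actin. It had the largest, from 17.2, 12.4 and 14.2 CPM in WT to 228, 123 and 227 CPM in KO (log2 3.72 ± 0.34, edgeR adjusted p = 4.2e-05). KO replicate 2 was the lowest of the KO libraries and still far above the highest WT library. Ptgds, an enzyme that makes prostaglandin D2, rose from 6.87 ± 0.574 to 64.7 ± 12.9 CPM, and it lies on chromosome 2, against the direction of its chromosome. Of 18 prostaglandin and leukotriene enzymes 3 rose and 3 fell, named here after their values were seen. All 3 that rose and 2 of those that fell lie on the 4 shifted chromosomes. Off them 0 of 10 rose and 1 fell. The other synthases Hpgds (43.8 to 75.4 CPM) and Ptges (1.99 to 3.45) rose with Ptgds. The cyclooxygenases Ptgs1 (88.2 to 53.7) and Ptgs2 (12.96 to 4.07) fell, as did Ptges2. Camk2a, a calcium/calmodulin-dependent kinase best known from neurons, rose from 5.96 ± 0.550 to 43.9 ± 7.63 CPM. Nsmaf, an adaptor of TNF receptor signalling to neutral sphingomyelinase, was at 3.43, 2.75 and 2.18 CPM in WT and 18.8, 18.2 and 18.8 in KO, with little spread in KO.

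The chemokine receptor Cxcr2 rose from 1.04 ± 0.283 to 7.06 ± 1.11 CPM (log2 2.75 ± 0.24, adjusted p = 1.5e-05 by edgeR). The other genes of the 12 largest increases were Aldh5a1, Rab30, Tspan10, Fgf13, Pianp, Trim63 and Spocd1, with log2 fold changes from 2.46 for Spocd1 to 2.80 for Aldh5a1. WT levels of these 7 were between 1.15 and 3.27 CPM on average. Outside the coding class, Ighm, the constant region of the immunoglobulin mu heavy chain, rose from 18.2, 10.2 and 9.08 CPM in the WT replicates to 194, 133 and 179 in KO. It is named after its values were seen. With the other B lineage markers near 0, the Ighm values stand apart from that list.

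Among abundant genes with at least a 2-fold change, the 5 most abundant decreases were Spp1, Vim, Lgals3, Emilin2 and Sirpa. Spp1 (osteopontin), a secreted matrix protein, was at 1705, 1582 and 1577 CPM in WT and 568, 296 and 506 in KO (log2 -1.83 ± 0.27, edgeR adjusted p = 8.2e-04). Vim (vimentin) fell from 1044 ± 71.9 to 264 ± 48.3 CPM and the lectin Lgals3 from 497 ± 53.3 to 226 ± 37.4. The 5 most abundant increases were Hist1h4j, Gstm1, mt-Nd3, Myom3 and Znrf2, each by 2- to 3-fold. Hist1h4j, Gstm1 and mt-Nd3 share 29.4%, 28.8% and 98.1% of their 31-base sequences with other transcripts and are uncertain.

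Where values of single libraries are given below, all KO libraries lay on 1 side of all WT libraries unless an overlap is stated. Of the 16173 tested coding genes, 4177 had all KO libraries below all WT libraries and 2522 had all above. Some calls rest close to the threshold. List counts of at least 2 that moved by over 1.5 times with 1 medium library left out are given with the library beside the count. With 1 of the 6 medium libraries left out, the direction held but the call was lost at least once for Apoe, Atp6v0d2, Ccrl2, Cdkl2, Clec4a3, Csf2rb, Csf2rb2, Csf3r, Ctsb, Cxcr1, Fcer1g, Gstm1, Hist1h4j, Ifit1, Itga6, Myom3, Ncf1, Ncf4, Nfkb2, Pf4, Slc2a3, Slc2a5, Timd4, Tmem119 and mt-Co3. With the pseudogene covariate the direction again held, and the call was lost for each of these genes and for Ass1, Axl, C1qc, Ccl9, Ccr7, Hist1h1b, Ifih1, Igf1, Msr1, Nfkbia, Psmb8, Ptges, Scd2, Slc8b1, Slfn8, Slfn9 and Tirap. Without KO replicate 1 the log2 difference of Cybb was -4.84, of Ass1 -5.31, of Maf -3.91 and of Msr1 -2.95, all larger than with it. Without WT replicate 1 that of C1qb was -3.12, of C1qc -2.46 and of Maf -2.62, all smaller, and without KO replicate 3 that of Mmp12 was -4.67 and of Marco -3.09. Sequence shared with other annotated transcripts makes some counts uncertain, among them those of Itgam (68.3% of its 31-base sequences), Ass1 (43.1%), Odc1 (31.3%), H2-DMb1 (31.4%), Csf2rb2 (30.1%), Slfn8 (27.3%) and Slfn9 (24.6%).

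The pan-macrophage markers moved unevenly. Of 18 tested, 8 were lower and 2 higher in KO, with 7 of 17 lower off the 4 chromosomes. Their median log2 fold change was -0.46, beside 0.04 over all tested genes and -0.04 over coding genes. Lyz2, the macrophage lysozyme, was at 179, 133 and 103 CPM in WT and 7.70, 4.64 and 5.86 in KO (log2 -4.51 ± 0.26, edgeR adjusted p = 8.6e-07), though 32.8% of its sequence is shared with other transcripts. Itgam (CD11b, the complement receptor 3 chain) was at 24.9, 18.9 and 18.9 and 3.87, 3.25 and 3.89 CPM, with no overlap. The LPS co-receptor Cd14 fell from 85.5 ± 7.73 to 38.2 ± 3.72 CPM. Against these, the common leukocyte antigen Ptprc was at 187 ± 12.4 and 188 ± 32.1 CPM (log2 0.010 ± 0.12), and the lysosomal membrane protein Laptm5 rose from 651 ± 24.6 to 1226 ± 95.95. The Fc receptor gamma chain Fcer1g rose too (log2 0.56). Without WT replicate 1 or 3 or KO replicate 1 or 3, and with the covariate, 1 marker was higher.

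Of 20 homeostatic microglia markers 5 were higher and 3 (15.0%) lower, beside 7.67% higher and 17.3% lower over coding genes. Without WT replicate 3 or KO replicate 1, and with the pseudogene covariate, 3 were higher. The complement genes C1qb and C1qc and the growth factor receptor Csf1r were the 3 that fell. C1qb was at 15.2, 4.93 and 3.94 CPM in WT and 0.758, 0.530 and 0.284 in KO. Csf1r fell from 240.3 ± 26.2 to 148 ± 20.5 CPM (log2 -0.70 ± 0.11). Tmem119, Gpr34, Olfml3 and P2ry13 rose from low levels, and the fructose transporter Slc2a5 rose slightly (116 to 145 CPM). In the list of 21 disease-associated microglia markers 7 fell and 2 rose. Without WT replicate 1, KO replicate 2 or KO replicate 3 the lower count was 4, and with the covariate 3. The higher count was 1 without WT replicate 1, 2 or 3 or KO replicate 1 or 3, and 0 with the covariate. Axl, a receptor tyrosine kinase that binds dying cells through GAS6, rose from 31.9, 17.4 and 15.2 CPM in WT to 109, 61.4 and 97.1 in KO (log2 2.06 ± 0.34, adjusted p = 0.0018 by edgeR). Apoe fell from 357 ± 54.5 to 186 ± 42.1 CPM and the growth factor Igf1 from 30.1 ± 12.9 to 7.17 ± 3.66. Gpnmb, at 2684 and 2823 CPM, and Trem2 were not called.

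Transcription factors of the myeloid lineage were lower in part, many of them on chromosome 2. Of 43 tested, 13 were lower and 1 higher. Off the 4 chromosomes, 5 of 24 were lower. On chromosome 2, Spi1 (PU.1) was at 125, 117 and 118 CPM in WT and 71.7, 68.4 and 62.6 in KO (log2 -0.83 ± 0.11, edgeR adjusted p = 2.9e-04). The median of the 30 genes nearest to Spi1 was -0.70. Cebpb, another myeloid factor on that chromosome, fell by 1.77-fold, with its neighbours at a median log2 of -0.60. The largest decrease was off these chromosomes, in Maf on chromosome 8, which was at 12.2, 4.43 and 3.85 CPM in WT and 1.17, 0.353 and 0.547 in KO. With the pseudogene covariate 7 factors were lower.

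C-type lectins are receptors for fungal and glycan ligands. Of 14 tested genes of lectins and their adaptors, 9 were lower and 1 higher, and the median log2 fold change was -1.11. Off the 4 chromosomes 0 of 2 were lower. Of the 12 on the shifted chromosomes, 9 lie on chromosome 6, where neighbouring genes were raised in KO. Clec7a (dectin-1, a receptor for fungal beta-glucan) was at 22.4, 13.3 and 11.6 CPM in WT and 0.817, 0.265 and 0.406 in KO (log2 -4.97 ± 0.42, edgeR adjusted p = 1.5e-05), while the 30 genes nearest to it had a median of 0.27. Clec4n (dectin-2) fell from 2.03 ± 0.732 to 0.0627 ± 0.0248 CPM and Clec12a from 1.40 ± 0.395 to 0.139 ± 0.0701. Clec4e (Mincle) was at 55.5, 50.9 and 53.4 CPM in WT and 20.3, 13.1 and 15.4 in KO. Clec4d fell to a smaller degree (log2 -1.21). The exception was Clec4a3, which rose from 3.12 ± 1.12 to 6.05 ± 0.888 CPM. The mannose receptor Mrc1 on chromosome 2 fell from 3.41 ± 1.85 to 0.157 ± 0.0167 CPM, below its neighbours' median of -0.47. Card9, an adaptor that carries the signal of some of these receptors, fell from 123 ± 8.21 to 60.8 ± 8.28 CPM.

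Among 22 complement genes 8 were lower and 0 higher, 6 of 17 off the 4 chromosomes. Besides C5ar1, C1qb and Itgam, C1qc fell from 8.02 ± 6.76 to 0.773 ± 0.178 CPM and the integrin chain Itgb2 from 109.7 ± 14.5 to 70.8 ± 9.84. The central component C3 was at 87.2 ± 7.77 and 83.5 ± 22.8 CPM and was not called. Of 21 scavenger and phagocytic receptors 7 were lower and 1, Axl, higher. Cd36, which takes up oxidised lipoproteins and fatty acids, was at 25.7, 13.4 and 9.21 CPM in WT and 0.525, 0.353 and 0.345 in KO (log2 -5.29 ± 0.53). WT replicate 1 was the highest WT library for Cd36, as for C1qb, Maf, Clec7a and Cybb. The class A receptors Msr1 and Marco fell from WT means of 1.54 and 0.454 CPM to 0.328 and 0.0815. Timd4, a receptor for phosphatidylserine, was called lower although its libraries overlapped (3.88, 0.216 and 3.83 CPM in WT and 0.369, 0.265 and 0.182 in KO). With the pseudogene covariate 4 of these receptors were lower.

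Toll-like receptors were affected in part. Of 17 receptors and co-receptors 6 were lower and 0 higher, and none of the 3 on the shifted chromosomes was among them. Tlr13, a sensor of bacterial ribosomal RNA, was at 74.1, 63.6 and 58.6 CPM in WT and 26.03, 18.6 and 24.1 in KO. Tlr4, the receptor for LPS itself, named after its values were seen, fell from 57.8 ± 6.27 to 37.3 ± 5.45 CPM (log2 -0.63 ± 0.12), and Tlr1 from 19.7 ± 0.789 to 10.9 ± 1.09. Tlr2, its partner, was at 60.5 ± 6.28 and 71.3 ± 12.3 and was not called, nor was the TLR4 regulator Cd180. Of 22 signalling genes 9 were lower and 1 higher, and with the covariate 5 were lower. Irak3 (IRAK-M), an inhibitor of the pathway, was at 6.47, 6.10 and 5.31 CPM in WT and 0.311, 0.177 and 0.264 in KO. The ubiquitin ligase Traf6 on chromosome 2 fell from 46.98 ± 1.57 to 25.5 ± 1.74 CPM, where its neighbours' median log2 was -0.55 and its own -0.88. Of the adaptors Myd88 and Tirap, Myd88 was not called (log2 -0.35 ± 0.12) and Tirap was higher (log2 0.48 ± 0.10).

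Of 15 NF-kB subunits and inhibitors 6 were lower and 0 higher, and 3 lower with the pseudogene covariate. Without WT replicate 2, 10 were lower. The subunits Rela and Rel did not differ detectably, with Rela at 56.02 ± 1.16 CPM in WT and 56.9 ± 3.11 in KO. Nfkb2 and Relb, the subunits of the non-canonical branch, fell from 51.5 ± 2.49 to 31.5 ± 5.14 CPM and from 11.1 ± 0.796 to 6.01 ± 1.12 CPM. The inhibitor Tnip3 was at 12.9, 13.9 and 11.3 CPM in WT and 2.64, 1.75 and 2.15 in KO (log2 -2.54 ± 0.22), against its chromosome 6 neighbours at 0.47. Nfkbia fell from 40.5 ± 1.12 to 27.4 ± 3.46 CPM, close to its chromosome 12 neighbours on the log2 scale (-0.56 against -0.37).

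In the interleukin-1 family, ligands and the receptor antagonist fell together. Of 20 tested genes 10 were lower and 0 higher, with a median log2 of -0.43 and 5 of 13 lower off the 4 chromosomes. Off those chromosomes the median was 0.020. Il1rn, the antagonist, was at 178, 194 and 191 CPM in WT and 13.1, 8.28 and 9.49 in KO (log2 -4.19 ± 0.22, edgeR adjusted p = 2.9e-07). Il1b was at 2.44, 2.53 and 1.75 and 0.583, 0.376 and 0.426 CPM, and Il1f9 fell from 1.78 ± 0.512 to 0.109 ± 0.0275. These 3 genes and Il1a all lie on chromosome 2. The medians of the 30 nearest genes were -0.42 for Il1rn and -0.53 for Il1a. The decreases of Il1rn and Il1a were thus several times their neighbours' on the log2 scale.

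Of 22 other cytokines 8 were lower and 1 higher, none of them on the shifted chromosomes, and 5 were lower with the covariate. Tnf was at 6.38, 6.96 and 6.33 CPM in WT and 3.97, 3.98 and 4.50 in KO (log2 -0.66 ± 0.13, edgeR adjusted p = 0.0043). Osm (oncostatin M) fell from 9.66 ± 0.289 to 4.14 ± 0.291 CPM, Tgfb1 from 99.2 ± 5.85 to 67.8 ± 5.17 and Vegfa from 88.03 ± 4.99 to 52.2 ± 3.80. Pdgfa rose from 15.2 ± 1.59 to 33.5 ± 5.92 CPM. Il6 and Il10 were under 0.2 CPM in both lines on average. Of 24 chemokines 6 were lower and 3 higher. Ccl4 fell from 5.47 ± 0.958 to 1.26 ± 0.284 CPM and Ccl9 from 12.01 ± 1.75 to 2.90 ± 0.569. Fractalkine (Cx3cl1), the ligand of the microglial receptor CX3CR1, rose from 1.33 ± 0.297 to 5.004 ± 0.558 CPM, and Pf4 from 39.3 ± 8.30 to 62.6 ± 11.8. With the covariate 2 chemokines were lower and 1 higher. Without WT replicate 3, KO replicate 1 or KO replicate 3, 1 chemokine was higher.

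Chemokine receptors split evenly, with 3 higher and 3 lower of 14. Ccr7, Cxcr1 and Cxcr2 rose, the first from 0.147 ± 0.0692 to 0.972 ± 0.161 CPM and the second from 0.318 ± 0.0652 to 1.47 ± 0.642. Ccr1, Cxcr3 and Ccrl2 fell, Ccr1 from 1.54 ± 0.277 to 0.117 ± 0.0368 CPM. Cxcr4 was at 30.7 ± 3.13 and 30.6 ± 11.04 CPM and was not called. Among growth factor receptors the decreases of Csf2ra, Csf1r and Csf3r (6.59 to 3.74 CPM) stood beside the increases of Csf2rb and Csf2rb2, and the other 11 genes of that list were not called. Without WT replicate 1 or 3 or KO replicate 1 or 3, and with the covariate, 0 genes of that list were higher, and without KO replicate 2, 1 was. With the covariate 1 chemokine receptor was higher.

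Interferon-stimulated genes are switched on by type I interferon. Of 61 tested without stimulus, 27 were lower and 4 higher, with a median log2 fold change of -0.77. Off the 4 chromosomes 22 of 53 were lower. With the pseudogene covariate 18 were lower and 1 higher. Rtp4 was at 7.58, 6.86 and 4.41 CPM in WT and 0.389, 0.177 and 0.284 in KO (log2 -4.44 ± 0.42), and Slfn2 at 16.8, 14.1 and 11.2 and 2.18, 0.862 and 1.82. Samd9l fell from 5.72 ± 2.37 to 0.664 ± 0.156 CPM, although it lies on chromosome 6. The classical member Ifit1 was low in both lines, at 0.561 ± 0.156 and 0.129 ± 0.0355 CPM. Ifit2, at 8.94 ± 1.25 and 10.2 ± 0.725, was not called. The 4 that rose were Slfn8, Slfn9, Psmb8 and Herc6.

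Of 22 interferon regulatory factors, STATs and JAKs 5 were lower and 0 higher. Irf7 was at 14.5, 11.5 and 9.02 CPM in WT and 3.05, 2.36 and 3.04 in KO (log2 -2.05 ± 0.26, edgeR adjusted p = 3.3e-04). Irf9 fell from 15.6 ± 1.78 to 7.23 ± 0.349 CPM, Stat2 from 28.4 ± 2.54 to 15.7 ± 1.05 and the receptor kinase Tyk2 from 25.5 ± 2.03 to 12.3 ± 2.19. Irf1, Irf2 and Irf3 were not called. Of 11 cytosolic nucleic acid sensors 7 were lower and 0 higher, 4 of 7 off the 4 chromosomes, and 3 were lower with the covariate. RIG-I (Ddx58) fell from 11.6 ± 2.71 to 4.01 ± 1.10 CPM, MDA5 (Ifih1) from 0.747 ± 0.296 to 0.178 ± 0.0392 and PKR (Eif2ak2) from 49.6 ± 4.54 to 30.3 ± 2.28. Ifih1 lies on chromosome 2, at a log2 fold change of -2.05 against -0.76 for its neighbours. Cgas and Tmem173 (STING) were not called, at 21.7 and 22.4 CPM and at 45.7 and 55.2 CPM.

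The enzymes that make reactive oxygen and nitric oxide fell sharply in a few genes. Cybb, the catalytic gp91 subunit of the phagocyte NADPH oxidase, was at 169.7, 118 and 96.4 CPM in WT and 15.2, 3.25 and 5.72 in KO (log2 -3.98 ± 0.55, edgeR adjusted p = 6.0e-04). Its membrane partner Cyba was at 139 ± 11.2 and 145 ± 10.6 CPM and was not called, and the cytosolic subunits Ncf1 and Ncf4 fell by less (log2 -0.53 and -0.37). Nos2, the inducible nitric oxide synthase, was at 53.3, 65.1 and 63.02 CPM in WT and 7.76, 6.43 and 7.44 in KO. Of 14 genes of arginine, nitric oxide and itaconate metabolism 8 were lower and 0 higher, and 6 of 12 off the 4 chromosomes. Acod1, which makes itaconate, was at 40.03, 45.9 and 51.4 and 4.47, 2.21 and 4.18 CPM. Ass1, which regenerates arginine, fell from 9.17 ± 4.28 to 0.746 ± 0.887 CPM, and Odc1, the first enzyme of polyamine synthesis, from 283 ± 11.2 to 119.7 ± 28.4. The second arginine transporter Slc7a1 was at 216 ± 17 and 205 ± 15.8 and was not called.

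Proteases of the matrix were lower in 8 of 15 genes and higher in 0. Adam8, a membrane metalloprotease of activated myeloid cells, was at 92.9, 95.8 and 87.2 CPM in WT and 2.08, 3.03 and 2.49 in KO (log2 -5.18 ± 0.21, edgeR adjusted p = 8.4e-08). The macrophage elastase Mmp12 fell from 3.17 ± 1.24 to 0.189 ± 0.122 CPM and Mmp9 from 5.54 ± 2.38 to 0.645 ± 0.0745. Adam17, which releases TNF from the membrane, fell from 205 ± 8.34 to 115 ± 9.55 CPM. It lies on chromosome 12. Of 23 integrin chains 9 were lower and 1 higher. Itga9 fell from 4.26 ± 2.12 to 0.593 ± 0.0782 CPM and Itga4 from 159.5 ± 16.2 to 58.9 ± 8.04, while the laminin receptor chain Itga6 was called higher with overlapping libraries, 11.9, 6.51 and 6.09 CPM in WT and 24.7, 10.98 and 19.4 in KO. The common chain Itgb1 was at 304 ± 35.7 and 319 ± 47.6 CPM. In the list of 33 guidance genes that holds Neo1, 6 fell (18.2%) and 4 rose, beside 17.3% lower and 7.67% higher over coding genes. With the covariate 2 rose. The netrin ligand Ntn1 fell from 15.8 ± 1.37 to 3.99 ± 0.993 CPM and the semaphorin receptor Plxnd1 rose from 214 ± 17.1 to 381 ± 45.5.

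Of 31 lysosomal genes 15 were lower and 0 higher, with 12 of 25 off the 4 chromosomes and a median log2 of -0.46. The cathepsin gene Ctsb was at 1803, 1462 and 1599 CPM in WT and 1251, 751 and 1036 in KO (log2 -0.68 ± 0.19). Progranulin (Grn) fell from 643 ± 67.1 to 356 ± 51.7 CPM and Ctsk, at low level, from 3.33 ± 0.292 to 0.546 ± 0.153. Lamp1 and Psap were not called. Of 16 subunits of the vacuolar proton pump 8 were lower and 0 higher, and 4 with the covariate. Without WT replicate 3, 5 were lower. The subunit Atp6v0d2 fell most, from 10.8 ± 2.56 to 2.42 ± 1.41 CPM.

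Of 24 genes of cholesterol synthesis and uptake 17 were lower and 0 higher in medium (11 lower with the covariate), 14 of 21 off the 4 chromosomes. Under LPS 3 of the 24 were lower and 4 higher, with a median log2 of -0.06. Of the 17 lower in medium, 3 were called lower under LPS too. The median log2 in medium was -0.48. Hmgcs1 fell from 289 ± 33.1 to 154 ± 18.5 CPM and the sterol carrier Stard4 from 79.4 ± 4.28 to 17.1 ± 2.55. Srebf2, which encodes the transcription factor of this pathway, was at 567, 474 and 532 CPM in WT and 553, 467 and 551 in KO, and its groups overlapped. In medium the genes of fatty acid synthesis and lipid droplets gave 9 lower of 20 and 0 higher. Fatty acid synthase (Fasn) fell from 689 ± 35.3 to 389.9 ± 56.5 CPM, Scd2 from 1616 ± 121 to 1062 ± 90.1 and the lipid droplet protein Plin2 from 75.7 ± 10.8 to 46.7 ± 0.873.

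In the integrated stress response and serine synthesis list 11 of 25 were lower and 0 higher, 8 of 21 off the 4 chromosomes. Atf4, the factor that drives the response, was at 208, 197 and 186 CPM in WT and 89.97, 154 and 102 in KO (log2 -0.77 ± 0.18, edgeR adjusted p = 0.012). Chac1, which degrades glutathione, fell from 5.68 ± 0.874 to 0.809 ± 0.351 CPM, the pseudokinase Trib3 from 12.8 ± 2.05 to 2.97 ± 1.51 and the secreted Stc2 from 1.87 ± 0.277 to 0.0954 ± 0.0188. The serine synthesis enzymes Phgdh and Psat1 were not called, Phgdh being at 378 and 367 CPM with 56.3% of its sequence shared with other transcripts. Targets of the antioxidant factor NRF2 went both ways, with 9 lower and 2 higher of 20 (1 higher without KO replicate 1 or 3, or with the covariate). Haem oxygenase Hmox1 fell from 298 ± 24.6 to 151 ± 13.1 CPM and Srxn1 from 75.1 ± 6.73 to 34.6 ± 0.581, while Gclc, for glutathione synthesis, rose from 105 ± 8.29 to 145 ± 9.50.

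**Figure D5:**
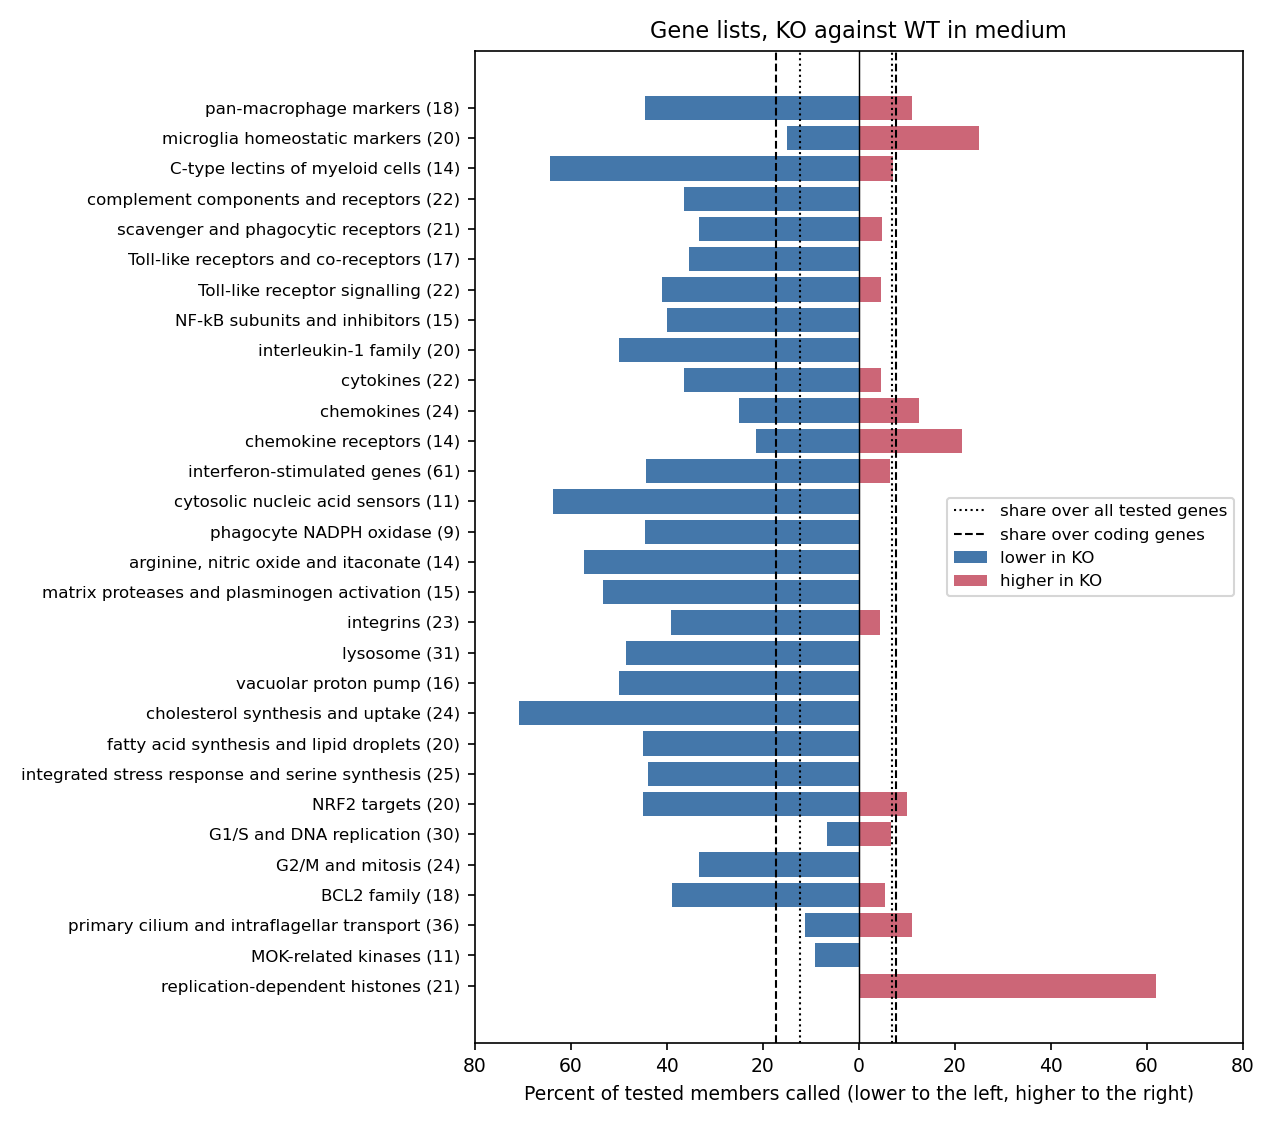
Percent of the tested members of 30 gene lists called lower (bars to the left) or higher (bars to the right) in KO in medium, with the number tested in brackets. Dotted lines mark the shares over all tested genes, 12.3% lower and 6.88% higher, and dashed lines those over coding genes, 17.3% and 7.67%. Cholesterol synthesis, C-type lectins and nucleic acid sensors extend farthest to the left, and histone genes extend farthest to the right.

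Most called mitotic genes lay on the shifted chromosomes. Of 24 genes of G2/M and mitosis 8 were lower, and 7 of these lie on chromosomes 2 and 13. Off the 4 chromosomes 1 of 17 was lower. The count of 8 became 5 without WT replicate 1 or KO replicate 1, 4 without WT replicate 3 and 3 with the covariate. Aurka, the mitotic kinase aurora A on chromosome 2, was at 76.5, 70.3 and 80.3 CPM in WT and 37.7, 45.5 and 39.9 in KO (log2 -0.88), and its 30 neighbours had a median of -0.58. Cdk1, Top2a and Mki67 on other chromosomes were not called, with Cdk1 at 78.7 ± 5.74 and 79.4 ± 2.62 CPM. Of 30 genes of G1/S and replication 2 were lower and 2 higher. The lower count was 5 without WT replicate 2, 4 without KO replicate 2 and 1 with the covariate. The higher count was 1 without WT replicate 2 or 3 or KO replicate 1 or 3, and with the covariate. Mcm2 on chromosome 6 rose (log2 0.58, neighbours 0.28) and Pcna on chromosome 2 fell (log2 -0.46, neighbours -0.53).

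Replication-dependent histone genes were higher in 13 of 21 and lower in 0, a median log2 of 0.51. All but 2 of the 21 lie in the histone cluster of chromosome 13, in and beside the raised windows. Relative to their 30 nearest genes, many of them histones too, the median was 0.20. Hist1h1b, a linker histone with 3.93% shared sequence, was at 178, 169 and 166 CPM in WT and 235, 229.9 and 227 in KO. Several core histone genes share over 40% of their sequence with one another and are uncertain as single genes. Only 1 histone gene was higher with the pseudogene covariate, against 15 without WT replicate 2. Without WT replicate 1 the count was 7, and without KO replicate 2 it was 8.

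Among survival genes of the BCL2 family 7 of 18 were lower and 1 higher. With the covariate 4 were lower. Bcl2l1 (BCL-XL), on chromosome 2, was at 41.8, 36.2 and 36.6 CPM in WT and 11.96, 10.8 and 12.04 in KO (log2 -1.72 ± 0.14), well below its neighbours' median of -0.48. Bcl2a1a, Bcl2a1b and Bcl2a1d fell together, but share 79.6% to 89.1% of their sequence. Bcl2 was not called, with WT at 25.1 ± 2.01 CPM and a log2 fold change of -0.063. Of 27 glycolysis genes 8 fell and 2 rose, 3 and 1 of these among the 16 off the 4 chromosomes. Without WT replicate 2 the lower count was 14. The higher count was 1 without WT replicate 1 or 2, and 0 without WT replicate 3 or KO replicate 1 or 3 and with the covariate. Hk3, a hexokinase of myeloid cells, was at 207, 182 and 201 CPM in WT and 44.4, 42.2 and 47.9 in KO, below its chromosome 13 neighbours (-0.43). The glucose transporters Slc2a1 and Slc2a3 moved in opposite directions, from 233 ± 19.4 to 130.0 ± 14.2 CPM and from 142 ± 13.8 to 223 ± 42.3 CPM.

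Of 11 kinases related to MOK 1 was lower, Cdkl2 (6.79 to 4.87 CPM), and 0 were higher. Ick was at 10.03 ± 0.917 and 12.2 ± 1.14 CPM and Mak under 1 CPM on average in both lines. Of 36 genes of the primary cilium and intraflagellar transport 4 were higher and 4 lower, shares of 11.1% each. Over coding genes 7.67% were higher and 17.3% lower, and over all tested genes 6.88% and 12.3%. Without WT replicate 2, 9 were lower. The higher count was 8 without KO replicate 2, 2 without KO replicate 1 or with the covariate, and 1 without KO replicate 3. Ift122 on chromosome 6 rose from 9.23 ± 1.06 to 20.7 ± 1.25 CPM. Of 25 genes of MAP kinase cascades 4 were lower and 2 higher, with the p38 kinase Mapk11 and its activator Map2k6 the largest decreases (log2 -1.53 and -1.73). With the covariate 0 were higher. Mapk3 was not called. Among 16 BET and P-TEFb genes, Cdk9, on chromosome 2, fell from 83.6 ± 2.88 to 47.7 ± 0.330 CPM (log2 -0.81, against -0.85 for its neighbours).

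Of 22 p53 targets and cell cycle inhibitors 9 were lower and 5 higher. With the covariate 4 were lower and 2 higher, and 3 were higher without WT replicate 1 or 3 or KO replicate 1 or 3. Trp53 itself fell from 161 ± 6.67 to 118 ± 6.67 CPM and the cyclin-dependent kinase inhibitor Cdkn1a from 112 ± 9.79 to 50.1 ± 4.24. Of 19 immediate early factors 7 were lower and 0 higher. Fos, on chromosome 12, was at 4.57, 4.71 and 3.69 CPM in WT and 1.46, 2.17 and 1.97 in KO (log2 -1.21, against -0.38 for its neighbours).

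Of 24 MHC genes 3 were higher and 2 lower. The lower count was 5 without WT replicate 2, 4 without KO replicate 1 and 1 without KO replicate 2, and with the covariate 0 were higher and 1 lower. H2-D1 and H2-K1 were not called, and H2-DMb1, a peptide loader of MHC class II, fell from 9.24 ± 1.65 to 1.74 ± 0.210 CPM. Of 25 interleukin and interferon receptors 3 rose and 2 fell. Without WT replicate 2, 6 were lower. Il17ra on chromosome 6 rose from 14.6 ± 1.66 to 37.3 ± 3.36 CPM, beyond its neighbours (log2 1.35 against 0.33). Of 13 mitochondrially encoded genes 2 were higher, mt-Nd3 and mt-Co3, and mt-Co1 was at 6857 and 6603 CPM. With any 1 of the 6 medium libraries left out, or with the covariate, 1 mitochondrial gene was higher. Of their sequence mt-Co3 shares 99.9% and mt-Co1 63.9% with other transcripts, which makes these counts uncertain.

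The LPS libraries called 3111 of the 5074 genes (61.3%) in the same direction as the medium libraries. Under LPS 7.87% of all tested genes were called higher and 12.7% lower. Of the 1818 genes higher in medium, 877 (48.2%) were called higher under LPS and 12 lower. Of the 3256 lower in medium, 2234 (68.6%) were called lower under LPS and 20 higher. Of the 194 genes lower by at least 8-fold in medium, 165 were lower under LPS. In the KO LPS libraries Slc7a2 was at 0.406 ± 0.0520 CPM and C5ar1 at 1.26 ± 0.452, against 87.9 ± 14.4 and 117 ± 8.20 in the WT LPS libraries.

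The difference of the 2 line differences was tested as an interaction. It was called higher for 0.693% of tested genes and lower for 0.908%, and for 224 of the 5074 genes called in medium. That number was 3349 without WT medium replicate 2 and between 90 and 143 without WT medium replicate 1 or 3, KO medium replicate 1 or 3, any 1 WT LPS replicate, or KO LPS replicate 1 or 3. It was 474 with DESeq2 and 392 with the replicate number as a block. The 6 largest positive values among expressed coding genes called in medium were Acod1, Rtp4, Nos2, Treml4, Adam8 and Stx11. These were low in KO at rest and closer to WT under LPS. Acod1 was at 5013 ± 385 CPM in WT and 4669 ± 1054 in KO under LPS, and its log2 line difference went from -3.66 in medium to -0.10 (interaction 3.55 ± 0.34, edgeR adjusted p = 5.7e-04). Nos2 went from -3.07 to -0.49 (interaction 2.58 ± 0.23, adjusted p = 4.2e-04 by edgeR). Treml4, a receptor of myeloid cells, went from -3.64 to -1.08 and the secretion protein Stx11 from -3.77 to -1.49. Adam8 kept a large difference, -2.84 under LPS.

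The 6 largest negative values were Gm4070, Tmem171, Ifih1, Isg20, Atp13a4 and Ifi203, for which the line difference was wider under LPS. Ifih1 went from a log2 difference of -2.05 in medium to -5.08 under LPS, and the interferon-induced exonuclease Isg20 from -1.06 to -3.96. Tmem171 went from -2.59 to -5.69. At rest 3 of these 6 were under 2 CPM on average in WT, so their medium values rest on few counts. Gm4070 shares 98.6% of its sequence with other transcripts.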

How the data were processed

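RNA-seq was done on 12 libraries, 3 for each combination of line (WT or KO) and treatment (medium or LPS). What the authors deposited is 1 table of raw counts for each gene. Per the submitters' processing notes the tools were FastQC 0.11.9, Trimmomatic 0.39, STAR 2.7.9a, featureCounts and DESeq2 1.32.0 with the genome GRCm39. Per the labels' protocols RNA was taken with a column kit and libraries with a stranded, ribosomal-RNA-depleted total RNA kit. The strand setting of the counting is not given in the sources used here, so reads of overlapping genes on opposite strands may not be separated.

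The counts of all 4 groups were fitted together with edgeR 4.0.16 (R 4.3.3) by its quasi-likelihood test, with TMM scaling, robust estimation, filterByExpr at a count minimum of 10 and Benjamini-Hochberg adjustment over 26420 genes. KO was compared with WT in medium, under LPS, and as the difference of both. Standard errors are the log2 fold change over the square root of F. CPM were computed from the counts with the TMM-scaled library sizes. The labels call the replicates biological but do not say whether they are separate cultures, so p-values measure the spread between these libraries. GENCODE M21 (GRCm38) served only for symbols, gene classes, chromosomes and gene order, and 52135 gene IDs matched. Since the counts were made on GRCm39, no gene coordinates are given apart from the RefSeq start windows. Shared sequence is the percent of a gene's 31-base sequences found in transcripts of other genes. On simulated counts with 100 genes changed 2-fold and 100 changed 4-fold among 25492, the test recovered 50 and 85, with 5 false calls among 140. The simulated libraries had no differences in composition and no shifts of whole chromosomes. These figures therefore do not give the error rate in the real libraries.

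The comparison, gene lists and tests were chosen with earlier results of these data known. Genes were named by a fixed rule: Mok; the 12 largest changes in each direction among called coding genes of at least 4 CPM without overlap; up to 12 genes under 0.5 CPM in one line and over 5 CPM in the other; the 5 most abundant with at least a 2-fold change in each direction; the 6 largest interactions in each direction. In each list any member could be named up to 16 tested genes. In longer lists these were the 4 largest called changes, the 2 most abundant, the first 3 as written and members against the majority. Some genes that the rule allows are not reported here. Alternatives were other scalings and filters, DESeq2 1.42.0, no robust estimation, a replicate block, the medium libraries alone, coding genes alone, the log2 processed-pseudogene share as a covariate, the genes off 4 chromosomes and each library left out. The restriction by chromosome was added after seeing these data.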

Additional observations from a re-analysis of the deposited data

Results flagged for a closer look

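The line difference under LPS was compared with that in medium as an interaction in edgeR's quasi-likelihood fit, and 224 of the genes called in medium passed. Among the genes named, these had a different line difference between the conditions, given here as the log2 difference under LPS less that in medium. For genes lower in KO at rest and less so under LPS the values were Hmgcs1 0.80, Bcl2l1 1.25, Ntn1 1.26, Il1rn 1.84, Tnip3 1.97, Mical2 2.01, Slfn2 2.07, Stx11 2.28, Adam8 2.34, Treml4 2.56, Nos2 2.58, Rtp4 2.73 and Acod1 3.55. For genes lower in KO at rest and more so under LPS they were Gm4070 -3.82, Marco -3.62, Tmem171 -3.10, Ifih1 -3.02, Isg20 -2.90, Atp13a4 -2.66, Ifi203 -2.49, Glipr2 -2.49, Tlr13 -1.68, Csf3r -1.66, Btg3 -1.57, Stat2 -1.21, Map2k6 -1.08, Plin2 -0.97 and Osm -0.82. For genes higher in KO at rest they were Herc6 -2.04, Rab30 -1.73, Slfn8 -1.62, Slfn9 -1.32, Ptges -1.24, Il17ra -1.02 and Cx3cl1 2.25. For genes not called at rest they were Ifit2 -2.46 and Cgas -0.85. Gm4070 and Btg3 share much of their sequence with other transcripts.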

How the results depend on the processing

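Low genes are limited by depth and by 3 libraries a group, and the highest of each of the ranges of counts below was without WT medium replicate 2. The number of genes called higher in medium, 1818, became 802 from the 6 medium libraries alone, 558 with the pseudogene covariate and 1057 without the genes of chromosomes 2, 6, 12 and 13, and ran from 907 to 6110 with 1 library left out. The number called lower, 3256, became 1784 with the covariate and ran from 2477 to 5155 with 1 library left out. The number called in the same direction in both conditions, 3111, became 2000 with the covariate and 2063 without those 4 chromosomes, and ran from 2516 to 3429. The number whose line difference changed with LPS, 224, became 474 with DESeq2, 382 with coding genes alone and 88 with the covariate, and ran from 90 to 3349. The chromosome medians less that of the 16 other chromosomes kept their direction in each alternative run. With 1 library left out that of chromosome 12, -0.36, ran from -0.39 to -0.34. The cause of these changes was not tested.

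Replicate numbers shared between the groups did not pair the WT and KO medium libraries, whose same-numbered deviations correlated at 0.638, 0.279 and -0.481 over 11760 genes. Those of KO medium and KO LPS libraries correlated at 0.289, 0.61 and 0.161, those of WT medium and WT LPS at 0.398, -0.295 and -0.091, and those of WT LPS and KO LPS at 0.283, 0.327 and -0.031. Across lines, KO medium and WT LPS gave 0.144, 0.23 and 0.364, and WT medium and KO LPS 0.334, -0.032 and 0.004. The 4 groups of the interaction were thus not all paired by number. With the replicate block 2417 genes were higher and 3769 lower, 3882 had the same call under LPS and 392 changed with LPS.

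Of 197 genes named and called in medium, 45 lost the call in at least 1 alternative and 0 changed sign. Of 47 named and not called, 26 changed sign in at least 1. With the pseudogene covariate, Bcl2 was at 0.0098, Cd180 -0.0097, Cgas -0.052, Cxcr4 0.082, Dnlz 0.079, Ebf1 0.21, H2-K1 0.018, Ifit2 -0.097, Mak 0.39, Mapk3 0.012, Mcu 0.064, Phgdh 0.065, Ptprc -0.0098, Rel -0.0038, Rela -0.036, Srebf2 0.051, Top2a 0.045, Trem2 0.0054 and mt-Co1 0.12. With RLE size factors, Cdk1 was at -0.013, Ptprc -0.013 and Rela -0.0021. With no filter beyond 1 count, Cdk1 was at -0.0018 and Ptprc -0.0038. With DESeq2, Cdk1 was at -0.013, Ptprc -0.013 and Rela -0.0021. From the 6 medium libraries alone, Cdk1 was at -0.011, Ptprc -0.014 and Rela -0.0017. Without the genes of chromosomes 2, 6, 12 and 13, Cdk1 was at -0.022, Ptprc -0.025, Rel -0.0023 and Rela -0.013. With a count minimum of 50, Cxcr4 was at 0.018, H2-K1 0.010, Srebf2 0.022, Top2a 0.017 and Trem2 0.00030. With coding genes alone, Cxcr4 was at 0.019, H2-K1 0.011, Srebf2 0.022, Top2a 0.017 and Trem2 0.00070. With the replicate block, Il10 was at 0.0078 and mt-Co1 0.0098. With 1 medium library left out their values ran, for Bcl2 -0.20 to 0.027, C3 -0.33 to 0.056, Cd180 -0.073 to 0.14, Cdk1 -0.067 to 0.025, Cgas -0.020 to 0.082, Cxcr4 -0.31 to 0.22, Cyba -0.017 to 0.11, Dnlz -0.10 to 0.015 and Ebf1 -0.36 to 0.099. Further ranges were Gpnmb -0.12 to 0.28, H2-D1 -0.11 to 0.15, H2-K1 -0.12 to 0.11, Il10 -0.73 to 0.91, Itgb1 -0.035 to 0.17, Mapk3 -0.18 to 0.071, Ptprc -0.10 to 0.13, Rel -0.045 to 0.097 and Rela -0.026 to 0.043. Further ranges were Srebf2 -0.093 to 0.061, Top2a -0.082 to 0.045, Trem2 -0.11 to 0.045 and mt-Co1 -0.43 to 0.22.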
